A study of Mus musculus with 21 samples.

Results

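Fbxl19 binding was mapped at 2 expression levels of the tagged protein, in 2 clones made from the mouse J1 line of embryonic stem (ES) cells, which are pluripotent and were cultured with leukemia inhibitory factor. These were 4 of the 21 samples of the series, or 2 of its 12 groups. Both clones carried Fbxl19 with a flag-biotin tag. The OE-high clone was selected for expression more than 5 fold above the endogenous level and the OE-low clone for expression below it. Chromatin was cross-linked with formaldehyde, the tagged protein was pulled down with streptavidin beads, and the recovered DNA was sequenced (ChIP-seq). Each clone had 2 samples and 1 combined list of peaks, which held 13669 peaks in OE-high and 2213 in OE-low. The comparison used every peak of both lists, and a peak was counted as listed in both clones if it overlapped a peak of the other list by 1 bp or more.

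The groups have limits as a model. Each expression level is a single clone, so level and clone cannot be told apart. The labels name the OE-low cells as containing BirA, the ligase that attaches biotin to the tag, and do not mention BirA for the OE-high cells. Input DNA was sequenced as a control, and no sample title names a streptavidin pulldown from cells with BirA and no tagged protein. Read depth per sample is unknown. A site absent from a list was therefore not shown to be unbound in that clone. As the samples of each clone were combined, no spread between replicates can be given and no test was made. Intervals are exact 95% intervals for counting error only, and peaks are not replicates.

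Fbxl19 belongs to the F-box proteins, which act as substrate adaptors of ubiquitin ligases, and its CXXC zinc finger recognises CpG without methylation. Such DNA is concentrated in CpG islands, which lie at many promoters and stay unmethylated in ES cells. Rnf20 is the E3 ligase that attaches ubiquitin to histone H2B, and the product, H2Bub1, marks transcribed gene bodies. The series title links the 3: Fbxl19 is named as the protein that brings Rnf20 to CpG islands. Further lists of the series were set beside the Fbxl19 peaks. They were Rnf20 peaks (1 sample) and H2Bub1 domains of unmodified ES cells (3 samples) and of the OE-high clone (3 samples).

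In each list a peak has 2 deposited scores, named here the first score (column 4 of the list) and the second score (column 5). What they measure is not stated in the labels or files. They were used to order peaks within a list, to form a quotient and to pick out extreme values. The second score was a whole number in every peak of both lists and started at 24 in OE-high and at 16 in OE-low. The quotient of the second score plus 1 over the first score repeated in many peaks. In OE-high, 6 values from 2.52 to 4.41, spaced by 0.378 to 0.379, held 49.9% of all peaks, and the others spread from 2.20 to 130.9. In OE-low the 6 most common values, unevenly spaced, held 39.5%. The first score lay between 1.72 and 187.8 in OE-high, with a median of 10.7, and between 1.73 and 86.8 in OE-low, with a median of 7.82. Where scores of both clones are given side by side, each describes its own list, and their sizes were not compared between the clones.

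Of the OE-low peaks, 1779 of 2213 (80.4%) were also in the OE-high list, and of the OE-high peaks 1761 of 13669 (12.9%) were in the OE-low list. The lists thus divided into OE-high peaks in both clones, 11908 peaks only in OE-high (87.1% of that list) and 434 only in OE-low (19.6%). These shares rest on the unequal number of peaks and on the 1-bp rule. With the 2213 OE-high peaks of highest first score set against the OE-low list they were 37.0% of OE-low and 36.4% of OE-high peaks, and 35.6% and 34.8% by the second score. With at least 50% of both peaks covered they were 42.7% and 6.92%. OE-high peaks covered 9878.1 kb in all and OE-low peaks 769.5 kb.

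Overlap followed the scores of the OE-high peaks steeply and their length hardly at all. Among deciles of the first score, 5.49% of the OE-high peaks in the lowest decile were in both clones (95% interval 4.34 to 6.83). The second lowest decile had 3.29% (2.41 to 4.38) and the highest 43.6% (40.9 to 46.3). Nearly all of that difference lay in the upper deciles: the share was 5.71% in decile 4, 12.4% in decile 7 and 22.2% in decile 9. Deciles of the second score gave the same picture, from 4.54% in the lowest (3.49 to 5.78) to 42.9% in the highest (40.2 to 45.5). Deciles of length ran only from 9.66% in the shortest (8.14 to 11.3) to 15.2% in the longest (13.4 to 17.2), and the 8 deciles between them held 11.8% to 13.5%.

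Score and length were partly tied in OE-high, so the share was also taken with one held in quartiles. Within every length quartile the lowest quartile of the first score had between 3.68% and 4.75% of its peaks in both clones, and the highest between 26.5% and 33.6%. Within the highest score quartile, by contrast, the shortest peaks were in both clones more often than the longest, 33.0% (28.5 to 37.7) against 26.5% (24.1 to 29.0). Quartile 3 of the first score had the same order, with 16.7% (14.2 to 19.4) of the shortest against 9.95% (8.02 to 12.2) of the longest. At a like first score, a longer OE-high peak was thus not more often in the OE-low list.

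Even at the top of the OE-high list many peaks had no OE-low counterpart. Of the 100 OE-high peaks with the highest first score, 54.0% (43.7 to 64.0) were in both clones, and of the top 500, 53.0% (48.5 to 57.4). Ranked by the second score, the top 100 had 67.0% (56.9 to 76.1) and the top 500 56.6% (52.1 to 61.0). The share was close to level over the top 500 by the first score. In OE-low, 92 of the top 100 by either score were in both clones (84.8% to 96.5%).

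**Figure D1:**
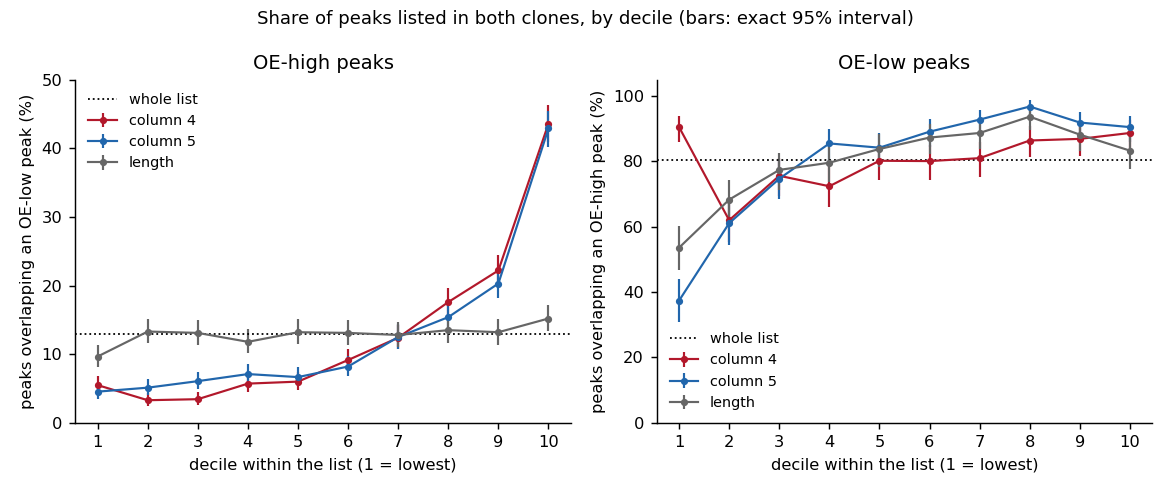
Share of peaks listed in both clones (y axis, percent) by decile within the list (x axis) of the first score (column 4), the second score (column 5) and length, for OE-high (left) and OE-low peaks (right). Bars are exact 95% intervals and the dotted line is the whole list; in OE-high both scores climb to 43.6% and 42.9% in the highest decile while length stays between 9.66% and 15.2%.

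In OE-low the share of peaks in both clones differed widely by the second score, by the quotient and by length. It was 37.4% in the lowest decile of the second score and 96.8% in decile 8, and 53.6% in the shortest decile of length and 93.7% in decile 8. By the quotient it was 45.0% in the lowest decile and 95% in decile 9. The first score behaved otherwise at its low end. Its lowest decile, with a first score up to 7.01, had 90.5% of its peaks in both clones (85.9 to 94.0), more than the 62.0% (55.2 to 68.4) of the second lowest decile and close to the 88.7% (83.8 to 92.6) of the highest. Peaks of that lowest decile had a median second score of 33 and a median quotient of 6.19, against 19 and 2.82 in the decile above it. Among OE-low peaks with a low first score, the share thus depended on the second score. Within the lowest quartile of both scores, 46.9% (39.8 to 54.2) were in both clones, and within the lowest quartile of the first score and the highest of the second 92.6% (87.6 to 96.0). OE-high peaks had the same order, with 1.78% (1.16 to 2.59) in the lowest quartile of both scores. Within the lowest OE-high quartile of the first score and the highest of the second it was 25.7% (20.1 to 31.8).

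As classes, OE-high peaks in both clones had a median first score of 13.8 (13.6 to 14.1) against 10.4 (10.3 to 10.4) for peaks only in OE-high. Their median second score was 42 (41 to 43) against 31. Their lengths nearly coincided, with medians of 648 bp (627 to 667) and 622 bp (613 to 630). When an OE-high peak counted as shared only if OE-low peaks covered at least 50% of it, the order of length turned, with 455.5 bp for shared peaks and 639 bp for the rest; a short peak reaches that coverage with fewer covered bases. The distributions of the scores overlapped widely, as the middle 50% of first scores ran from 11.4 to 17.4 in the shared class and from 8.84 to 12.4 in the other. A second score of 100 or more was found in 2.67% of OE-high peaks in both clones and 0.210% of those only in OE-high.

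OE-low peaks in both clones were longer than those only in OE-low, with medians of 288 bp (281 to 298) and 229 bp (223 to 236). Their median second score was 26 (25 to 26) against 19.5 (19 to 20), and their median first score 7.91 (7.85 to 7.98) against 7.51 (7.44 to 7.64). Many peaks only in OE-low lay at the floor of the list. Their second score was at the list minimum in 12.9% (9.90 to 16.4), against 0.899% (0.515 to 1.46) of those in both clones, and 29.5% (25.2 to 34.0) against 8.99% (7.70 to 10.4) were shorter than 200 bp. The quotient was within 1% of its minimum in 33.6% (29.2 to 38.3) of the peaks only in OE-low and in 7.03% (5.88 to 8.31) of those in both clones.

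**Figure D2:**
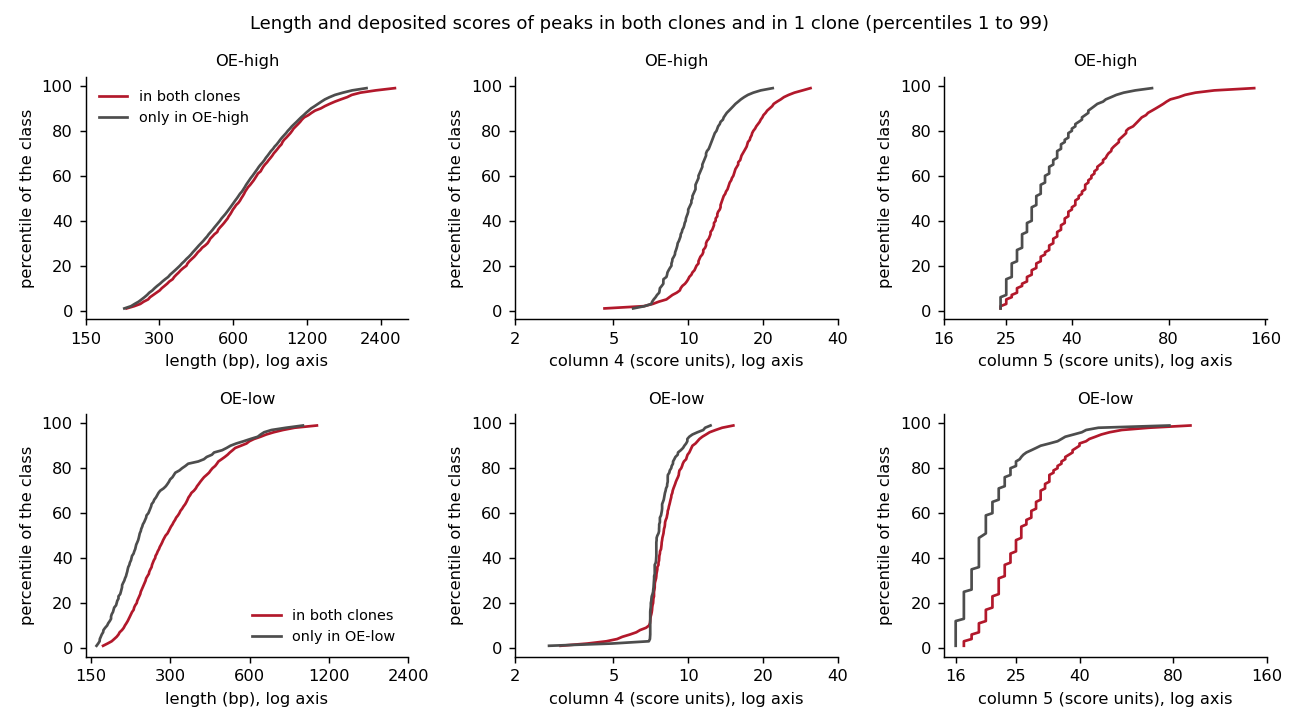
Percentile curves (y axis, percentile of the class) of length in bp and of the first score (column 4) and the second score (column 5) in score units, on log axes, for peaks in both clones (red) and in 1 clone only (grey), with OE-high above and OE-low below. In OE-high the length curves nearly coincide (medians 648 and 622 bp) and the score curves part; in OE-low the curves of length and the second score part most.

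The strongest peaks of the class in both clones, by the lower of their 2 ranks on the first score, included 3 short ones. One, at chr8:66164693-66164954 on the mm9 build used throughout, was 262 bp long in OE-high and 207 bp in OE-low and had rank 3 and rank 1 in its lists. Another, at chr13:105275511-105275769, was 259 bp and 201 bp long, and a further one, at chr17:33932758-33932977, was 220 bp and 205 bp long. Their summits lay 15, 32 and 6 bp apart between the clones. None of the 3 overlapped an Rnf20 peak or an H2Bub1 domain of ES cells or of the OE-high clone. The remaining peak of these 4, at chr12:87819573-87820878, was 1306 bp long in OE-high and 518 bp in OE-low, had summits 23 bp apart, stood in a cluster of 6 OE-high peaks, and overlapped all 3 of those lists. The longest, at chr17:39979953-39985793, had nearly the same extent in both clones, 5841 and 5811 bp, with a second score of 355 in OE-high and a first score of only 5.12. No filter for repeated sequence was applied here, and whether this peak lies in such sequence was not tested.

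The 4 peaks only in OE-high with the highest first scores were each at least 1029 bp long. By the first score the leading peak of that class was at chr19:5844173-5847213, 3041 bp long with a first score of 121.3, the second highest of the OE-high list, and the nearest OE-low peak was 40363 bp away. The others were at chr2:181047673-181049224, chr14:76915024-76916105 and chr5:29760949-29761977, between 1029 and 1552 bp long, and had ranks 4, 5 and 7 in their list. The peak on chromosome 14 lay 1158 bp from an OE-low peak and stood in a cluster of 6. The longest peak of the class, 4661 bp, was at chr12:88222386-88227046 in the largest OE-high cluster.

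Where peaks overlapped, the OE-low peak was as a rule the shorter and lay inside the OE-high peak. OE-low peaks were also shorter over the whole lists, with a median of 275 bp against 625 bp in OE-high. Of the 1779 OE-low peaks in both clones, 1571 (88.3%, 86.7 to 89.8) were wholly inside 1 OE-high peak, and 12 held a whole OE-high peak instead. Of the 1780 overlapping pairs, 197 overlapped on one side only, and the part outside was small, with a median of 15 bp and at most 50 bp in 87.3% of these pairs. The OE-low peak had a median of 0.518 (0.505 to 0.532) times the length of its partner and was the longer in 2.02% of pairs. Nested OE-low peaks left a median of 134 bp of the OE-high peak at the lower coordinate and 128 bp at the higher, so neither side was favoured.

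The summits of paired peaks nearly coincided. The median distance between them was 28 bp (26 to 30). It was within 10 bp in 22.3% of pairs, within 50 bp in 72.1% and within 100 bp in 88.0%. The OE-low summit lay at the smaller coordinate in 49.2% of pairs, at the larger in 49.5% and at the same base in 1.35%. In 1779 of 1780 pairs the OE-low summit was inside the OE-high peak, and the OE-high summit was inside the OE-low peak in 95.3% (94.3 to 96.3). The OE-low summit lay in the middle 40% of the OE-high peak in 70.4% of pairs and in the outer 10% at either end in 0.899%. For comparison, 74.0% of the shared OE-high peaks had their own summit in the middle 40%.

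Longer OE-high peaks had longer OE-low partners. From the shortest to the longest quartile of the shared OE-high peaks, the median length was 326, 536.5, 783 and 1243.5 bp in OE-high and 224, 281, 349 and 394 bp for the OE-low partners. The share nested was 76.4% (72.2 to 80.3) in the shortest quartile and 94.3% (91.8 to 96.3) in the longest, where an OE-low peak has more room to lie inside. The median summit distance was 20 bp in the shortest quartile and 41.5 bp in the longest. Across the 1780 pairs the rank correlation of OE-low with OE-high values (Spearman's rho) was 0.587 for length, 0.582 for the second score and 0.330 for the first, as a description of sites that share a genome and a pulldown method.

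**Figure D3:**
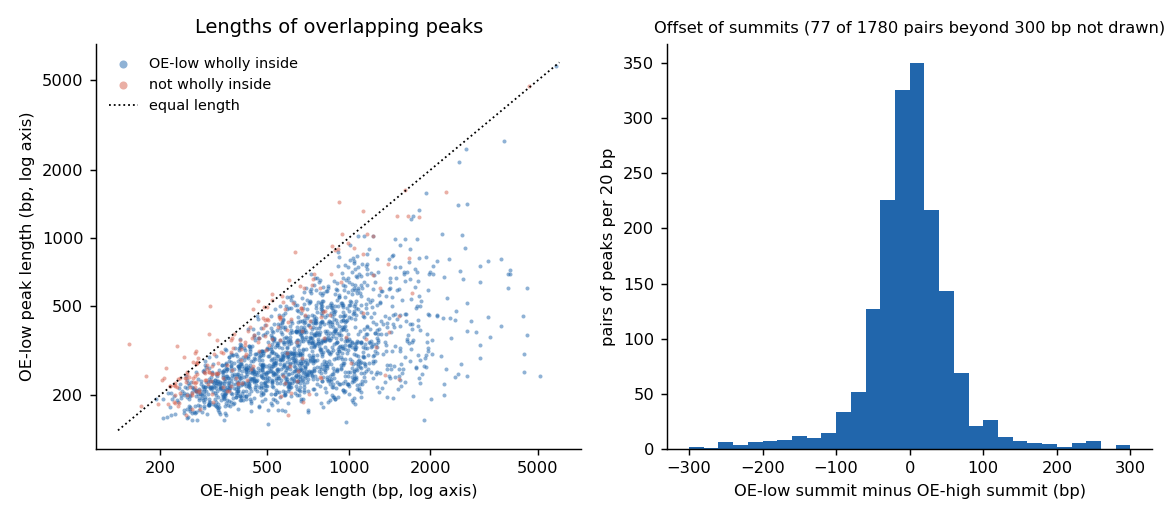
Left, length of the OE-low peak (y axis, bp, log) against the OE-high peak it overlaps (x axis, bp, log), in blue where the OE-low peak is wholly inside; nearly all points lie below the dotted line of equal length. Right, number of pairs per 20 bp (y axis) by the OE-low minus the OE-high summit position (x axis, bp); the offsets centre on 0 with a median distance of 28 bp.

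A few long OE-high peaks were divided in OE-low. Of the 1761 shared OE-high peaks, 17 held 2 OE-low peaks and 1 held 3, and these 18 had a median length of 1830 bp. The one with 3, at chr3:96048963-96051706, was 2744 bp long, and its OE-low peaks of 1420, 388 and 245 bp were 102 and 115 bp apart. Only the middle one had its summit close to the OE-high summit, 79 bp away, while the others were 1601 and 407 bp away. At chr14:76903749-76908319, a 4571-bp OE-high peak held OE-low peaks of 600 and 369 bp, the second with its summit 23 bp from that of OE-high. At chr12:92826264-92829545, a 3282-bp peak held OE-low peaks of 444 and 790 bp, the second with its summit 8 bp away. In both of these the OE-low peak at the OE-high summit also overlapped an Rnf20 peak and the other did not. At the peak on chromosome 3, by contrast, all 3 OE-low peaks overlapped an Rnf20 peak. In the opposite direction, 1 OE-low peak touched 2 OE-high peaks.

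OE-high peaks stood close together whether or not they were in the OE-low list, and those in both clones slightly more so. The median gap to the nearest other OE-high peak was 13562 bp (12198 to 14843) for peaks in both clones and 17593 bp (16880 to 18254) for those only in OE-high. Another OE-high peak lay within 10 kb of 42.7% (40.4 to 45.1) of the former and 38.3% (37.4 to 39.1) of the latter, against 38.8% of the whole list. OE-low peaks were sparser, with a median gap of 101702.5 bp for those in both clones and 172145 bp for those only in OE-low. Another OE-low peak lay within 10 kb of 16.1% and 11.3% of them, against 15.1% of that list. The OE-low list has fewer peaks, 2213 against 13669, which by itself widens gaps. Spacing at equal numbers of peaks was not compared.

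Neighbouring peaks no more than 10 kb apart were joined into clusters. In OE-high, 2056 clusters of 2 or more peaks held 5308 peaks, or 38.8% of the list, and 600 of the clusters (29.2%) had a member in both clones. The share of peaks in both clones was 12.1% (11.4 to 12.8) among single peaks, 13.0% (11.8 to 14.3) in clusters of 2, 12.9% (11 to 15) in clusters of 3, 15.8% (12.9 to 19.0) in clusters of 4 and 19.0% (16.3 to 21.9) in clusters of 5 or more. At least 1 member was in both clones in 23.3% of clusters of 2 and in 62.1% (52.9 to 70.7) of those of 5 or more, which also offer more peaks to overlap. In OE-low, with fewer peaks to join, 145 clusters of 2 or more were found, with 335 peaks.

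Within a cluster the peak in both clones was usually the one with the higher score. Of 288 OE-high clusters of 2 with a single shared member, that member had the higher first score in 77.8% (72.5 to 82.4), the higher second score in 72.9% (67.4 to 78.0) and the greater length in 55.6% (49.6 to 61.4). Of 198 clusters of 3 or more with a single shared member, it had the highest first score in 69.2% (62.3 to 75.5) and the greatest length in 33.8% (27.3 to 40.9). The order by score thus held between neighbours in one stretch of chromosome as well as across the list.

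**Figure D4:**
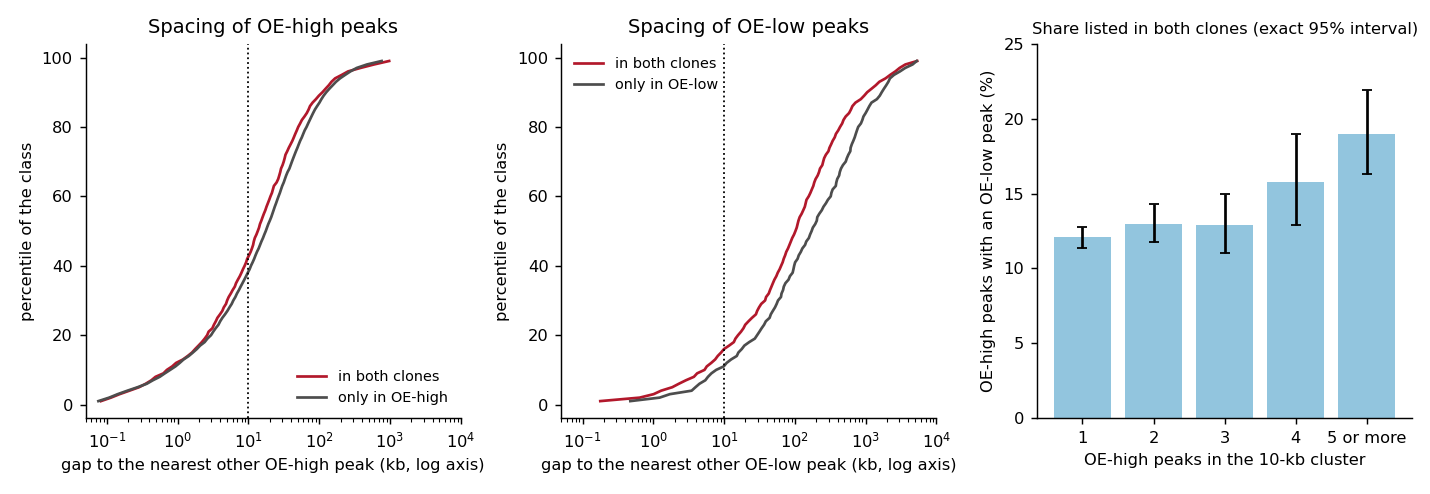
Percentile curves (y axis) of the gap to the nearest other peak of the same list (x axis, kb, log) in OE-high (left) and OE-low (middle), for peaks in both clones (red) and in 1 clone only (grey), with a dotted line at 10 kb. Right, share of OE-high peaks with an OE-low peak (y axis, percent, exact 95% interval) by the number of OE-high peaks in the cluster (x axis), from 12.1% for single peaks to 19.0% in clusters of 5 or more.

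The largest OE-high clusters differed in how much of them was in the OE-low list. The one with most peaks, at chr12:88209569-88274089, held 14 peaks over 64.5 kb, of which 4 were in both clones and 2 overlapped an Rnf20 peak. At chr6:47693486-47728684, 13 peaks stood in 35.2 kb with a median first score of only 4.07, 4 of them in both clones and 12 with an Rnf20 peak. At chr13:23622630-23677942, 8 of 12 peaks were in both clones and all 12 overlapped Rnf20. Further along the same chromosome was the largest cluster of OE-low peaks, at chr13:23830586-23854362, where all 8 overlapped an OE-high peak and 7 an Rnf20 peak.

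The 434 peaks only in OE-low were also placed relative to the OE-high peaks they did not touch. Their median distance to the nearest OE-high peak was 22996.5 bp. An OE-high peak lay within 1 kb of 26 of them, within 10 kb of 130 (30.0%, 25.7 to 34.5) and within 50 kb of 297 (68.4%, 63.8 to 72.8). For comparison, 38.8% of OE-high peaks had another OE-high peak within 10 kb and 75% within 50 kb, so peaks only in OE-low stood no closer to OE-high peaks than these did to each other. Peaks only in OE-high were far from the sparser OE-low list, with a median of 146220 bp, and 8.62% had an OE-low peak within 10 kb.

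The peaks only in OE-low with the highest first scores were only partly gathered in a single cluster. Of the 4 leading peaks, 2 were at chr13:40823690-40824175 and chr13:40812108-40812973, with first scores of 17.8 and 16.8 that had ranks 10 and 12 in the OE-low list. They belonged to a cluster of 4 OE-low peaks at chr13:40812108-40830302, none of which overlapped an OE-high peak or an Rnf20 peak. An OE-high peak lay 1729 bp from the first of them. The other leading peaks, at chr12:80224704-80224891 and chr2:39228659-39228922, were 188 and 264 bp long and stood 33846 and 146369 bp from the nearest OE-high peak. None of the 4 overlapped an H2Bub1 domain of ES cells or of the OE-high clone. The longest peak of the class, 1539 bp at chr16:23113907-23115445, had a first score of 7.64 and overlapped all 3 other lists.

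Along chromosomes, windows of 1 Mb with more OE-high peaks more often held an OE-low peak. Of 1-Mb windows, 1761 held an OE-high peak and 979 an OE-low peak, and 958 of these held both. As 80.4% of OE-low peaks overlap an OE-high peak, most windows with an OE-low peak hold both by that overlap alone. An OE-low peak was present in 18.5% of the windows with 1 OE-high peak, in 67.3% of those with 6 to 10 and in all 156 windows with 21 or more. Windows with more OE-high peaks also offer more peaks to overlap. The share of OE-high peaks in both clones was 14.1% (10.4 to 18.4) in windows with 1 OE-high peak, 10.5% (9.24 to 11.9) with 2 to 5, 12.3% (11.1 to 13.6) with 6 to 10, 12.5% (11.5 to 13.6) with 11 to 20 and 14.6% (13.6 to 15.7) with 21 or more. The share was thus lowest with 2 to 5 OE-high peaks, and with 1 it was near that with 21 or more. For each 100 OE-high peaks these windows held 20.1, 16.2, 15.5, 15.2 and 16.8 OE-low peaks, in the same order. Scaled in this way, OE-low peaks showed no steady rise with the density of OE-high peaks. The densest window of OE-high, on chromosome 7 from 52000001 to 53000000, had 55 OE-high and 11 OE-low peaks. The second, on chromosome 14 from 55000001 to 56000000, had 54 and 18, the largest number of OE-low peaks in a window. The next, on chromosome 10 from 80000001 to 81000000, had 49 and 8. Windows on chromosome 13 from 23000001 to 24000000 and on chromosome 3 from 96000001 to 97000000 had 17 OE-low peaks each, beside 35 and 30 of OE-high.

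The share of OE-high peaks in both clones had a median of 12% over the 19 autosomes and ranged from 8.73% (6.09 to 12) on chromosome 19 to 19.1% (16.2 to 22.2) on chromosome 12. Chromosome 14 had 18.7% (15.9 to 21.8) and chromosome 13 15.8% (12.7 to 19.3). Of the autosomes, these 3 had the most OE-low peaks for each 100 OE-high peaks, 22.8, 23.8 and 22.0, against an autosome median of 15.6. This ratio is tied to the share, as most OE-low peaks overlap an OE-high peak, and is not a separate observation. Chromosomes 12 and 14 had high first scores in OE-high, with medians of 11.5 and 11.3. With each chromosome weighted to the list's mixture of first-score quartiles, the share was 15.7% on chromosome 12, 16% on 13 and 16.1% on 14, and chromosome 1 was highest with 16.3%, above its unweighted 15.1%. The weighted shares of the 19 autosomes ran from 9.55%, on chromosome 19, to 16.3%. Chromosome X had only 52 OE-high and 17 OE-low peaks, and its 25% was uncertain (14.0 to 38.9).

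Chromosome 1 stood apart in the deposited scores of both lists. Its median quotient was 3.65 in OE-high and 4.11 in OE-low, while the autosome medians were 2.98 and 2.95. It had the lowest autosome median of the first score in both lists, 9.98 and 7.51, together with the highest median second score, 37 and 32. Its share of OE-low peaks in both clones was the highest of the autosomes, 89.6% (84.8 to 93.3). The part of the scores in this share was not tested. Without chromosome 1, both shares of overlap stayed within the intervals given for the whole lists.

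**Figure D5:**
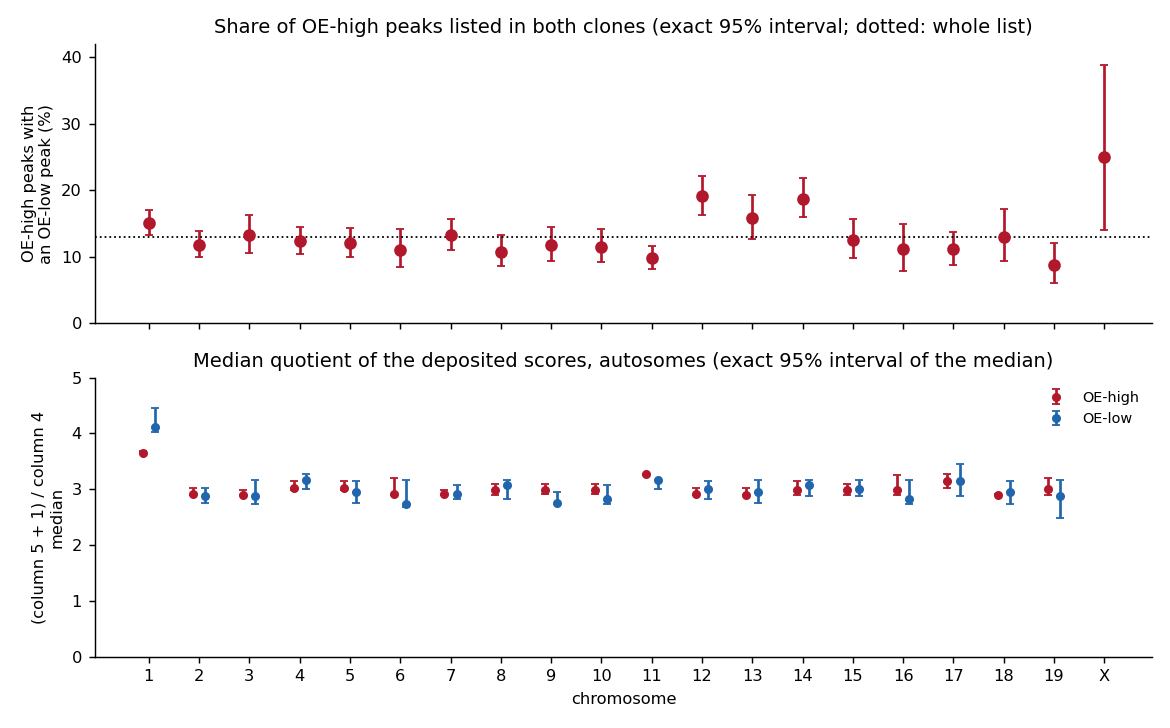
Above, share of OE-high peaks with an OE-low peak (y axis, percent, exact 95% interval) by chromosome (x axis), with the whole list as a dotted line; chromosomes 12 and 14 are highest among autosomes at 19.1% and 18.7%. Below, median quotient of the second score plus 1 over the first score (y axis) in OE-high and OE-low on each autosome, where chromosome 1 is highest at 3.65 and 4.11.

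Taken over whole lists, peaks in both clones more often lay at Rnf20 peaks than peaks in 1 clone. An Rnf20 peak was overlapped by 22.4% of all OE-high peaks, by 38.8% (36.6 to 41.2) of those in both clones and by 20% (19.3 to 20.7) of those only in OE-high. The OE-low list as a whole had 34.0%, its peaks in both clones 38.3% (36.0 to 40.6) and its peaks only in OE-low 16.6% (13.2 to 20.4). The order in OE-high was the same within each quartile of the first score. From the lowest to the highest quartile, 39.7%, 27.4%, 26.7% and 45.5% of the peaks in both clones overlapped Rnf20, against 15.5%, 16.4%, 20.5% and 30.4% of those only in OE-high. Within quartiles of the second score the intervals met in the lowest 2, with 13.2% (8.57 to 19.2) against 10.4% (9.36 to 11.5) and 17.9% (13.2 to 23.5) against 15.7% (14.5 to 17.1). The upper quartiles had 31.5% (26.8 to 36.4) against 22.3% (20.8 to 23.8) and 51.1% (47.9 to 54.2) against 35.5% (33.6 to 37.5). In OE-low the order was the same in every quartile of either score except the highest of the second. There 65.1% (49.1 to 79.0) of the 43 peaks only in OE-low overlapped Rnf20 against 53.1% (48.7 to 57.5) of those in both clones, and the intervals met. In the lowest quartile of the second score it was 7.84% (4.86 to 11.9) against 21.4% (16.9 to 26.5). From the lowest to the highest quartile of the first score, 10.8%, 10.4%, 19.2% and 36.4% (24.9 to 49.1) of the peaks only in OE-low overlapped Rnf20. Those in both clones had 40.3%, 33.4%, 35.2% and 43.5% (39.1 to 48.1), and the intervals met only in the highest quartile. The Rnf20 list came from 1 streptavidin pulldown in cells labelled as containing BirA, like those of OE-low, and the part of this likeness in the overlap was not tested.

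H2Bub1 domains were also compared between the classes. Domains of unmodified ES cells were overlapped by 21.2% of all OE-high peaks, 27.5% (25.4 to 29.6) of those in both clones and 20.2% (19.5 to 20.9) of those only in OE-high. Domains of the OE-high clone itself were overlapped by 53.9% of all OE-high peaks, and the classes were close, with 56.2% (53.9 to 58.6) and 53.6% (52.7 to 54.5). At a like second score the order turned in part. In quartile 2 of the second score, 38.0% (31.7 to 44.6) of the peaks in both clones and 49.7% (48.0 to 51.5) of those only in OE-high overlapped a domain of the OE-high clone, and in quartile 3 50.4% (45.2 to 55.6) and 60.2% (58.4 to 61.9). In the lowest quartile these were 37.9% and 42.3%, and in the highest 65.9% and 65.4%. For domains of ES cells the peaks in both clones had the lower share in quartiles 1 to 3, as in quartile 2 with 23 of 229 (6.47% to 14.7%) against 16.6% (15.3 to 18). The intervals met in quartiles 1 and 3. In quartile 4 they had the higher share, with 37.3% (34.3 to 40.4) against 31.2% (29.3 to 33.1). By quartile of the first score the order for ES domains did not turn, with 36.9%, 22.0%, 21.4% and 29.5% against 20.7%, 17.8%, 18.4% and 25.1%. There the intervals met in quartiles 2 to 4. For domains of the OE-high clone the classes were close in each first-score quartile, from 51.1% against 51.5% in the lowest to 60.5% against 60.4% in the highest. In the OE-low list, 23.8% overlapped a domain of ES cells, 27.2% (25.1 to 29.3) in the class in both clones and 9.68% (7.06 to 12.9) in the class only in OE-low. For domains of the OE-high clone these values were 46.9%, 53.2% (50.8 to 55.5) and 21.4% (17.7 to 25.6). Of the 4 classes, peaks only in OE-low had the lowest share at each of the 3 other lists, although for Rnf20 the interval met that of peaks only in OE-high, and they were also the shortest class.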

How the data were processed

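Sample titles gave the groups. The authors deposited 1 combined list for each Fbxl19 clone, with position, 2 scores and a summit per peak and no header; how the authors made the scores is not stated in the labels or files. Per the submitters' processing notes, BWA 0.5.9-r16 and MACS were used with the mm9 build; which step made which list is not stated. The deposited Rnf20 list and the H2Bub1 lists of ES cells and of the OE-high clone were used by position only. GEO's description of both OE-high pulldowns gives the clone's H2Bub1 list, so the Fbxl19 list was matched by its own name and the titles. Fbxl19 positions were read as counted from 1 and the others as counted from 0.

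Overlaps, gaps between nearest edges, clusters and 1-Mb windows were computed with Python 3.11.15, NumPy 2.4.6, pandas 2.3.3 and SciPy 1.17.1, on code tested on simulated lists; figures used matplotlib 3.10.9. Shares carry exact Clopper-Pearson intervals at 95% and medians exact binomial ones. Named regions were, in each class, the 4 highest by the first score (in both clones, by the lower percentile rank), the longest and up to 3 OE-high peaks with most OE-low peaks, and the 3 densest windows of each list, without the mitochondrial chromosome, unplaced contigs and chromosome 18. The largest clusters and regions with a second score of 500 or more were named after their values were seen. The peaks and comparisons were chosen with earlier results of these data known. No mm9 sequence or annotation was used, so peaks were not assigned to genes or CpG islands. For the same reason, no peaks were removed for lying in repeated sequence.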

Additional observations from a re-analysis of the deposited data

How the results depend on the processing

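Over 80 alternative settings of 21 values, 53 stayed within the interval of the value given. The share of OE-low peaks in both clones was 42.7% with 50% of both peaks covered, 74.1% with the top 50% of each list, and 37.0% and 35.6% with lists of the same number by the first and second score. For OE-high peaks these were 6.92%, 11.9%, 36.4% and 34.8%, with 6.98% at 50% of the peak covered and 14.1% with a gap of up to 1 kb. Alternatives chosen after seeing the data gave 11.8% without first scores under 7 and 14.0% with 1 peak per cluster. Nesting was 90% in the top 50% and 99.3% with OE-high peaks widened by 100 bp. At 5, 25 and 50 kb, the share with a neighbour was 29.9%, 64.0% and 79.6% for OE-high peaks in both clones and 26.9%, 58.4% and 74.4% for the others. With 50% of the OE-high peak covered, medians were 455.5 and 639 bp for length, 13.2 and 10.5 for the first score and 39 and 32 for the second; with a gap of up to 1 kb the first was 13.6 in shared peaks. No paired analysis was possible because the samples of each clone were combined into 1 list. Depth per sample is unknown, which limits any reading of the 87.1% of OE-high peaks with no OE-low peak.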

Other observations

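Short peaks with a high first score were few in OE-high, and they are described here as a set chosen after their values were seen. In the top 10% of the list by the first score, 27 peaks were shorter than 300 bp and 1339 were longer. Of the short ones, 10 (37.0%, 19.4 to 57.6) were in both clones, close to the 43.7% (41.0 to 46.4) of the long ones. They differed at the other lists: 3 of 27 (11.1%, 2.35 to 29.2) overlapped an Rnf20 peak against 44.3% (41.6 to 47.0) of the long ones, none overlapped an H2Bub1 domain of ES cells (up to 12.8%) against 31.1%, and 1 (3.70%, 0.0937 to 19.0) overlapped a domain of the OE-high clone against 65.9%. A shorter peak has fewer bases with which to overlap another list, and the part of length in these values was not tested.

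A second score of 500 or more was found at 1 place outside the mitochondrial chromosome. At chr1:24618388-24623019 the OE-high peak had a second score of 506 and a first score of 3.87, and its OE-low partner, 4705 bp long, had 600 and 4.56. The summits of the pair were 1957 bp apart. The OE-low list also held 1 peak over the mitochondrial chromosome, from 1 to 16299, with a second score of 600 and a first score of 4.06, and the OE-high list held none there. Whether the peaks on chromosome 1 lie in repeated sequence was not tested.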
